A study of Mus musculus with 12 samples.

Results

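Basement membrane and integrin genes were followed through 12 libraries of bulk RNA from cultured mouse embryonic salivary glands. The set is a list of 40 genes, matched by symbol to the Ensembl identifiers of the deposited count table, out of 52636 identifiers in all. It holds 8 laminin chains, 6 collagen IV chains, the collagens XV and XVIII, 4 nidogen or heparan sulfate proteoglycan genes, 4 genes of the Fras1/Frem complex and its partner nephronectin, 3 receptors that are not integrins, 8 integrin alpha and 5 integrin beta subunits. Hemidesmosome genes and the laminin chains they bind are outside the list. From general knowledge of embryonic organs, 14 members were assigned to epithelium, 13 to mesenchyme and 13 to both.

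Glands were taken at E13.5 and cultured on filters for 2 days. The 3 DMSO libraries (the vehicle) and the 3 FGFRi libraries come from wild-type glands, and FGFRi is SU5402 at 2.5 µM, a small molecule that blocks FGF receptor kinases in every cell it reaches and also acts on VEGF receptor kinases. The 2 WT, 2 HET and 2 HOM libraries had no treatment and belong to the K14Cre-Fgfr2b cross, in which Cre driven by the keratin 14 promoter, active in basal epithelial cells, removes the epithelial isoform of Fgfr2. WT and HET littermates served as controls for HOM, which carries the deletion on both copies. All 12 libraries share 1 batch label. The labels do not say whether libraries of a group came from separate embryos. In DMSO 1 library was male and 2 were female by Xist and Y-linked transcripts, so that group came from more than 1 embryo. Each of the other groups held 1 sex, which leaves this unknown for them. The p-values measure the spread between these libraries, much of which may be technical.

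A basement membrane is the thin sheet of matrix under an epithelium. Laminin trimers of an alpha, a beta and a gamma chain assemble on the cell surface, where integrins and dystroglycan bind them, and a network of collagen IV trimers is tied to the laminins by nidogens and heparan sulfate proteoglycans. In a branching salivary gland the sheet wraps each epithelial bud and is remodelled as buds grow, and its heparan sulfate chains bind FGF ligands. Epithelium and mesenchyme both supply its parts: Lama5 is mainly an epithelial product, whereas nidogens come largely from mesenchyme.

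Total counts ran from 6043701 to 22322182 per library. All 16 pan-epithelial and all 16 mesenchymal marker genes had counts in at least 1 library, and no gene of the other 7 marker lists was at 0 in every library. The mesenchymal marker Tcf21 was at 0 in most libraries and reached no more than 0.166 CPM. The summed pan-epithelial level was 3070 to 3577 CPM (counts per 1000000 of the TMM-normalized library) in DMSO and 2235 to 2521 in FGFRi, 3168 to 3287 in WT, 2710 to 2942 in HET and 2148 to 2260 in HOM. Mesenchymal markers summed to 2128 to 2236 CPM in DMSO and 3528 to 4980 in FGFRi, 2314 to 2393 in WT, 3351 to 3691 in HET and 3706 to 3876 in HOM. Skeletal muscle markers summed to 32.5 to 100.5 CPM in DMSO, 195 to 851 in FGFRi, 17.4 to 22.3 in WT, 122 to 227 in HET and 230.5 to 249.9 in HOM. Xist and Y-linked transcripts mark the 2 HOM libraries as female and the 4 WT and HET libraries as male, so sex and homozygous deletion cannot be told apart. In the other arm 1 DMSO library was male, and the other 2 and all FGFRi libraries were female. In bulk RNA, fewer cells of a type and less RNA per cell cannot be told apart.

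**Figure D1:**
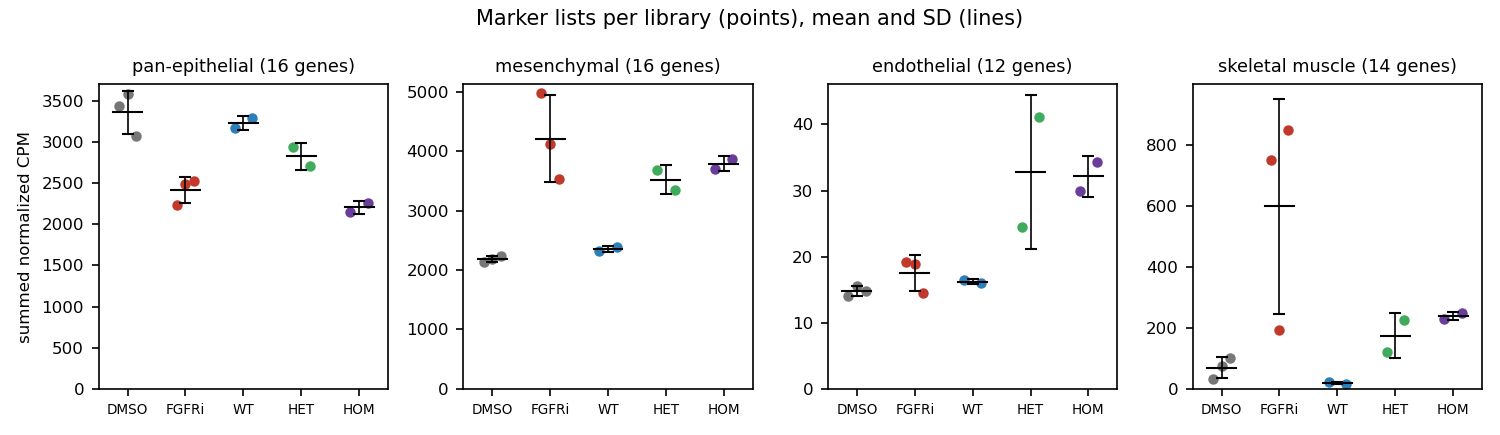
Summed normalized CPM of 4 marker lists in each of the 12 libraries (points), with the mean and SD of each group (lines); each panel has its own vertical axis from 0. Pan-epithelial sums are lowest in FGFRi and HOM, and mesenchymal sums are 2128 to 2393 CPM in DMSO and WT and 3351 to 4980 CPM in FGFRi, HET and HOM.

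Levels between genes were compared as CPM per kilobase of exon. In DMSO, Itgb1, the beta chain shared by most matrix-binding integrins, was highest at 76.0 ± 2.06 CPM per kb (SD, n = 3), followed by Col4a1 at 75.1 ± 16.2 and Dag1, the dystroglycan gene, at 70.2 ± 7.45, and these 3 levels do not differ beyond their SDs. Agrn at 47.6 ± 5.25 and Col4a2 at 45.7 ± 9.53 CPM per kb came next and also do not differ beyond their SDs, ahead of Lamc1 at 34.1 ± 4.37. Lama5, at 21.4 ± 2.98 CPM per kb, was the most abundant of the listed laminin alpha chains, and Lama4, Lama2 and Lama1 were at 6.88 ± 0.891, 1.15 ± 0.135 and 0.745 ± 0.183. Among the listed integrin alpha chains Itga3 was the most abundant at 12.4 ± 1.04 CPM per kb, ahead of Itgav at 9.39 ± 0.12 and Itga9 at 5.96 ± 0.678. Itga6, which is outside the list, was at 353 ± 34.8 CPM in DMSO, against 70.9 ± 5.93 CPM for Itga3. The lowest members were Itga1, Lamc3 and Col4a3, at 0.182 ± 0.037, 0.131 ± 0.0273 and 0.0391 ± 0.00781 CPM per kb. Col4a3, with 1 to 11 counts per library, did not pass the filter on low counts and was not tested, so 39 of 40 members entered every test.

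With the inhibitor, the collagen IV chains Col4a1, Col4a2, Col4a5 and Col4a6 and Lama5, Agrn, Itga3 and Itga9 fell, whereas both nidogens, Lama2, Itga4, Itgb3 and the integrin ligand gene Npnt rose. Of 39 tested members 6 rose and 11 fell (edgeR quasi-likelihood test, Benjamini-Hochberg adjusted p under 0.05), where 9.73% of all 15859 genes rose and 10.7% fell (20.5% called in all). The median log2 change over the members was 0.0020, against -0.015 over all genes. Of the 14 epithelial members 1 rose and 5 fell, with a median of -0.087, of the 13 mesenchymal members 5 rose and 2 fell, with a median of 0.18, and of the 12 tested shared members 0 rose and 4 fell, with a median of -0.13. In 6 fits that each left out 1 library, 10 of the 17 calls were kept every time, and 11 members were called without FGFRi 1. Scaled to library totals instead of TMM, 6 members rose and Col4a6 alone fell (genes of all kinds: 6.42% rose and 1.8% fell).

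In HOM against WT and HET, 9 members assigned to mesenchyme were higher, with the smallest adjusted p for Col15a1, Itga9, Nid1, Itga4 and Lama2, and Bcam was lower. Of 39 members 11 rose and 1 fell, where 3.44% of all genes rose and 2.44% fell (5.88% called in all), and the median log2 difference was 0.17 against 0.00055 over all genes. Of the mesenchymal members 9 of 13 rose and 0 fell (median 0.62), of the epithelial members 0 of 14 rose and 1 fell (median -0.033), and of the shared members 2 of 12 rose and 0 fell (median 0.18). The calls of Col15a1, Itga4, Itga9 and Nid1 were kept in all 6 fits that left out 1 library, and 4 members were called without HOM 2. With the sex of the library as a covariate 0 of 39 members and 46 of all 15859 genes were called (edgeR, 0.29%), and 8 members had an unadjusted p under 0.05. Sex varied within DMSO alone, so its term rests on DMSO 2 against the other DMSO libraries. This fit therefore cannot separate sex from deletion in HOM.

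**Figure D2:**
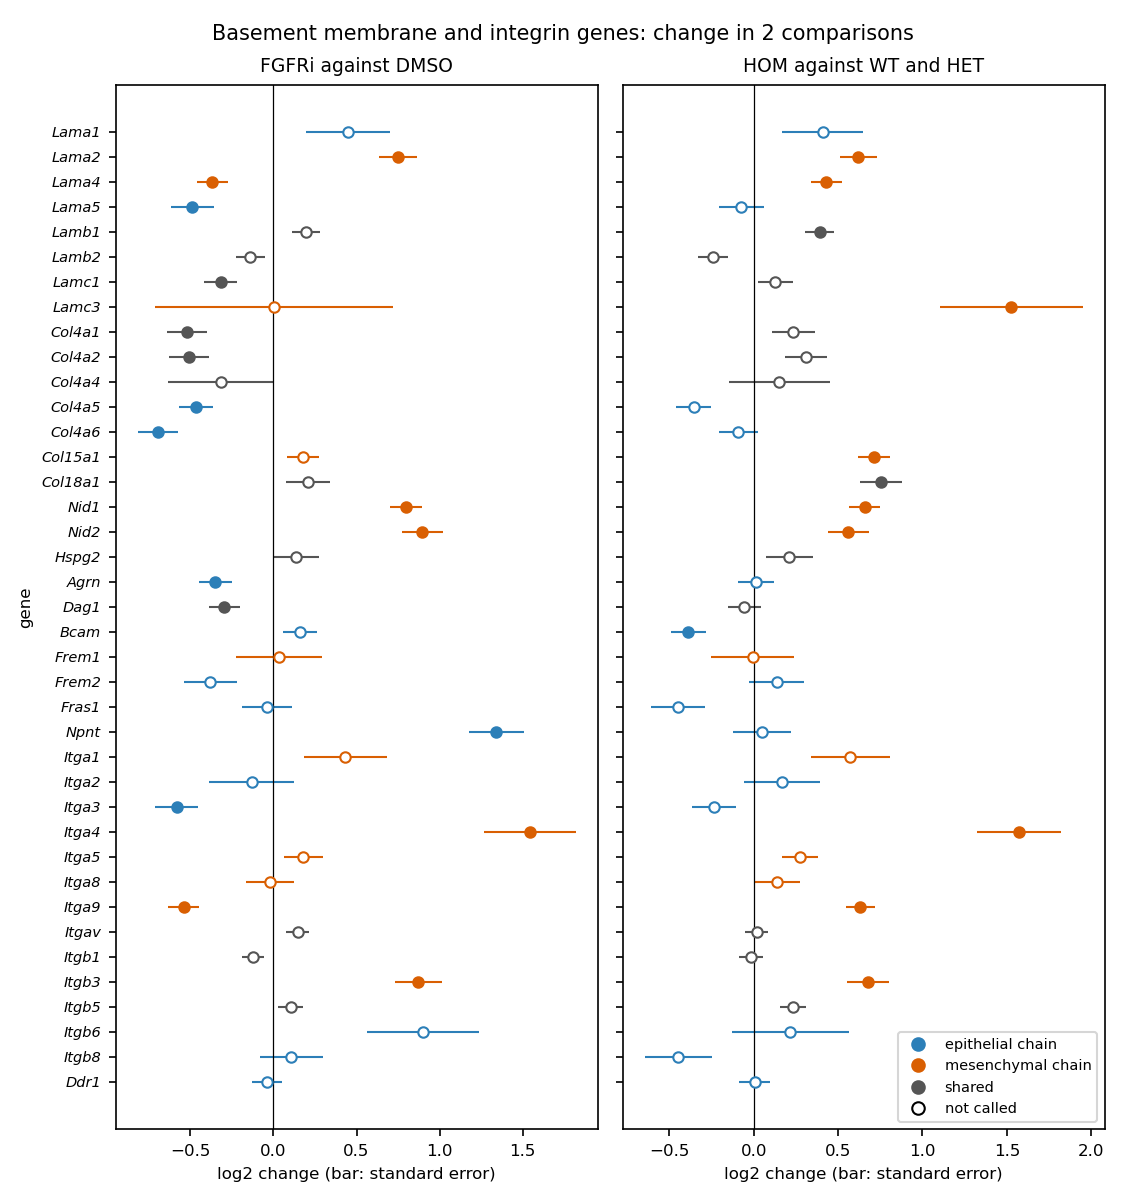
Log2 change of the 39 tested members with FGFRi against DMSO (left) and in HOM against WT and HET (right), with bars of 1 standard error; colour gives the assigned compartment and filled points passed an adjusted p of 0.05. The 5 tested collagen IV chains lie left of 0 with the inhibitor, and most filled points of the right panel are mesenchymal members above 0.

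Among the laminin chains, Lama5 (ENSMUSG00000015647), the main alpha chain under embryonic epithelia, was read at 269, 258 and 205 CPM in DMSO and 164, 197 and 162 CPM in FGFRi. All 3 FGFRi libraries lay below the DMSO libraries, and the log2 level fell by 0.49 ± 0.13 (SE, adjusted p = 0.0133). The call was lost without FGFRi 1 (-0.42, adjusted p = 0.0713) or DMSO 1 (-0.42, adjusted p = 0.0502). WT, HET and HOM libraries held 239, 258, 219, 309, 232 and 254 CPM of Lama5 and overlapped, with a log2 difference of -0.074 ± 0.13 (adjusted p = 0.832).

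Lama2 (ENSMUSG00000019899), an alpha chain of muscle and mesenchyme, went from 17.2, 18.0 and 21.3 CPM in DMSO to 34.9, 28.0 and 32.1 CPM in FGFRi. No library overlapped, and Lama2 rose by 0.75 ± 0.11 (adjusted p = 0.000383). Its level was 19.3 and 17.9 CPM in WT, 26.8 and 32.5 CPM in HET and 36.1 and 36.2 CPM in HOM, a rise of 0.62 ± 0.11 in HOM against both control groups (adjusted p = 0.00354; 0.07 without HOM 2). The summed skeletal muscle and mesenchymal markers moved with Lama2 in both arms, and their part in it was not tested.

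Lama4 (ENSMUSG00000019846), an alpha chain of vessels and mesenchyme, moved in opposite directions in the 2 arms. Its levels were 95.2, 79.2 and 74.7 CPM in DMSO and 71.4, 60.9 and 61.5 CPM in FGFRi, without overlap, and it fell by 0.37 ± 0.093 (adjusted p = 0.0116), a call lost without DMSO 1 (adjusted p = 0.0533) or FGFRi 2 (0.0741). WT held 77.0 and 83.1 CPM, HET 95.9 and 90.5 and HOM 120.4 and 112, with both HOM libraries above all controls. The rise in HOM was 0.43 ± 0.092 (adjusted p = 0.0122), and was not called without HOM 1 (0.107) or HOM 2 (0.0995). Endothelial markers summed to 14.01 to 15.6 CPM in DMSO, 14.4 to 19.3 in FGFRi, 16.0 to 16.5 in WT, 24.5 to 41.1 in HET and 30.0 to 34.3 in HOM. The sum hides unequal changes: with the inhibitor the median log2 change over the 11 tested markers was -0.37, with Cdh5 (endothelial cadherin) called higher (1.56 ± 0.28, adjusted p = 0.00119), Cldn5 called lower and at 0 counts in all FGFRi libraries, and the other 9 not called. Of all genes, edgeR called 20.5% with the inhibitor and 5.88% in HOM. In HOM the median over these markers was 0.69 and 0 of 11 were called by edgeR or DESeq2 (2 at an unadjusted p under 0.05 by edgeR). These medians moved in the directions of Lama4 in both arms, but some markers were near the floor, with Cldn5 and Tie1 at means of 0.337 and 0.681 CPM in DMSO. Between the genotypes the median was 1.12 in HET against WT and -0.020 in HOM against HET, whereas both HOM libraries exceeded both HET libraries in Lama4. The part of endothelial cells in the levels of Lama4 was not tested.

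Lama1, an alpha chain of early embryonic epithelia, was low, at 9.23, 6.5 and 5.91 CPM in DMSO and 12.3, 9.93 and 7.8 CPM in FGFRi, and was not called in either arm (log2 differences 0.45 ± 0.25 and 0.41 ± 0.24). Of the beta chains, Lamb1 was higher in HOM, at 284 and 283 CPM against 189.5, 199, 232 and 249.6 CPM in WT and HET, a rise of 0.39 ± 0.087 (adjusted p = 0.0154) that was not called without HOM 1 (0.0879) or HOM 2 (0.156). Lamb1 did not pass with the inhibitor (0.20 ± 0.085, adjusted p = 0.122), and Lamb2 passed in neither arm (-0.14 ± 0.086 and -0.24 ± 0.088). Lamc1, the gamma chain of most laminins, was read at 324, 259.7 and 263 CPM in DMSO and 225, 245 and 209 CPM in FGFRi and fell by 0.32 ± 0.10 (adjusted p = 0.0359). That call was lost without DMSO 1 (adjusted p = 0.163), FGFRi 1 (0.123) or FGFRi 3 (0.125). Lamc3, a minor gamma chain with 5 to 72 counts per library, was at 0.366 and 0.54 CPM in WT, 1.14 and 2.49 CPM in HET and 2.16 and 2.98 CPM in HOM. HET and HOM overlapped, and the rise of 1.53 ± 0.42 in HOM (adjusted p = 0.0454) was lost without any 1 library other than HET 2 (adjusted p from 0.087 without WT 2 to 0.44 without HOM 2).

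Shares within the laminins were computed per kilobase, and 15 such shares and ratios of chains were tested. Lama5 made up 70.5, 73.1 and 69.0% of the 4 alpha chains in DMSO and 60.7, 69.0 and 64.4% in FGFRi, 71.7, 72.4, 65.5 and 72.1% in WT and HET and 60.9 and 64.0% in HOM. Every FGFRi and HOM library lay below its controls in this share, FGFRi 2 only just, while Lama2 held 3.9 ± 0.974% in DMSO and 8.24 ± 1.23% in FGFRi (SD, n = 3). Lamb2 was 43.7 ± 1.73% of both beta chains in DMSO, 38.1 ± 0.359% in FGFRi, 45.5 ± 2.6% in WT and HET (SD, n = 4) and 34.9 ± 3.02% in HOM (SD, n = 2). With 3 libraries against 3, an exact two-sided permutation test cannot go below p = 0.1, and with 2 against 4 not below 0.0667, so no share could pass. The p-values of the Lama5 and Lamb2 shares were at those limits in both arms, and the adjusted values over the 15 quantities were 0.136 and 0.143.

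**Figure D3:**
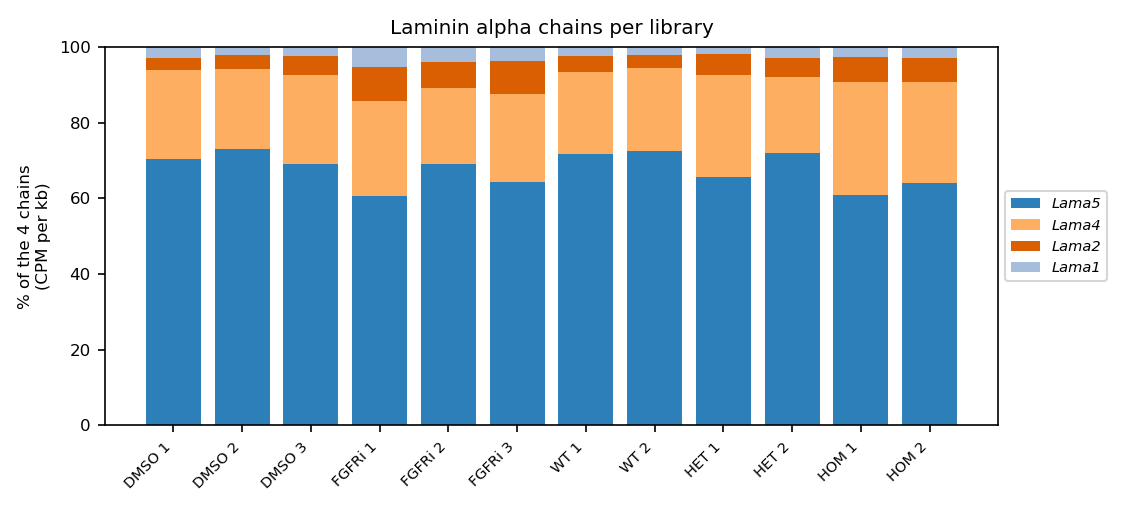
Share of each of 4 laminin alpha chains in their summed CPM per kb, in %, for each of the 12 libraries (1 stacked bar per library). Lama5 takes 69.0% to 73.1% in DMSO and 60.7% to 69.0% in FGFRi, and 60.9% and 64.0% in HOM.

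Collagen IV forms the covalent network of the sheet. Its genes lie in head-to-head pairs, among them Col4a1 with Col4a2, and Col4a5 with Col4a6 on the X chromosome. Of the 5 tested chains 4 fell with the inhibitor and 0 rose, where 10.7% of all genes fell and 9.73% rose, with a median log2 change of -0.51 against -0.015 over all genes. In HOM 0 passed by edgeR (median 0.15), where 5.88% of all genes were called. At an unadjusted p under 0.05 there were 2 in HOM, and DESeq2 called 1, Col4a5, whose adjusted p by edgeR was 0.0577.

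Sequence at the facing starts of Col4a1 and Col4a2 and of Col4a5 and Col4a6 is shown because these chains fell with the inhibitor. Of the remaining collagen IV chains, Col4a4 was not called and Col4a3 was not tested. The stretches are from RefSeq on GRCm38.p6, 5' to 3' on the strand named, and capitals mark a CCAAT box (CCAAT) or a GC box (GGGCGG). The first is chrX:141475169-141475369 on the + strand, directly before Col4a5, the second chrX:141474096-141474326 on the - strand, directly before Col4a6, whose annotated start lies 1274 bases from that of Col4a5. The third is chr8:11312805-11312826 on the + strand, the 22 bases where the annotated first exons of Col4a1 and Col4a2 overlap on opposite strands, so reads there cannot be assigned to 1 gene without strand.
Col4a5 upstream: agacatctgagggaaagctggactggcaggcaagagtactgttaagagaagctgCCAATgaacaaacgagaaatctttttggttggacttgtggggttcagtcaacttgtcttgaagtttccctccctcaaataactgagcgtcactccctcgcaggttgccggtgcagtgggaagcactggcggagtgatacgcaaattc
Col4a6 upstream: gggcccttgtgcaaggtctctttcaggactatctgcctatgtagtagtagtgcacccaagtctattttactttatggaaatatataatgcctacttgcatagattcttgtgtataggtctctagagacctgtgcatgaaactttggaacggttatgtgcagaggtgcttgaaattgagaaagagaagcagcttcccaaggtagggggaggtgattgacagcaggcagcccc
Col4a1 and Col4a2 overlap: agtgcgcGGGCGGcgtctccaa

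Col4a1 (ENSMUSG00000031502) was read at 699, 509 and 474 CPM in DMSO and 362, 429 and 380.2 CPM in FGFRi, and Col4a2 (ENSMUSG00000031503) at 375, 272 and 260.1 and 194, 228 and 213 CPM. The highest library of both was DMSO 1, and no FGFRi library reached a DMSO library. Col4a1 fell by 0.52 ± 0.12 (adjusted p = 0.00725) and Col4a2 by 0.51 ± 0.12 (adjusted p = 0.00711). Without DMSO 1 the changes were -0.33 and -0.33 (adjusted p = 0.0245 and 0.0247), and without FGFRi 1 both calls were lost (0.0503 and 0.0511). In HOM the 2 chains held 622 and 664 CPM and 349.8 and 410.0 CPM, above every WT and HET library (542, 523, 556 and 564 CPM for Col4a1), but neither difference passed (0.24 ± 0.13 and 0.31 ± 0.12, adjusted p = 0.337 and 0.164). The ratio of Col4a1 to Col4a2, both as CPM per kb, was 1.64 ± 0.0245 in DMSO, 1.64 ± 0.0455 in FGFRi (SD, n = 3) and 1.51 ± 0.0983 in HOM (SD, n = 2), within the spread of the libraries (exact permutation p = 0.8 and 0.533).

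Col4a6 (ENSMUSG00000031273) had levels of 43.3, 32.5 and 32.8 CPM in DMSO and 22.6, 24.4 and 19.9 CPM in FGFRi, and Col4a5 (ENSMUSG00000031274) of 75.6, 78.0 and 60.6 and 56.1, 55.1 and 46.1 CPM. Neither gene overlapped between the groups. Col4a6 fell by 0.70 ± 0.12 (adjusted p = 0.000955), the largest fall among the members, and Col4a5 by 0.47 ± 0.10 (adjusted p = 0.0047). Both calls held in all 6 fits without 1 library. With sex as a covariate Col4a6 was at -0.79 (edgeR, adjusted p = 0.0011) and Col4a5 at -0.39 (0.0313). Sex varied within DMSO alone, so that fit nearly repeats the one without DMSO 2 and adds little to it. The HOM libraries held 53.2 and 54.6 CPM of Col4a5, below all 4 controls (74.6, 76.2, 60.0 and 66.3 CPM), a difference of -0.35 ± 0.10 that did not pass, while Col4a6 overlapped (-0.09 ± 0.12). Col4a4 was low at 1.75, 2.91 and 1.97 CPM in DMSO and passed in neither arm (-0.32 ± 0.32 and 0.15 ± 0.30). Col4a3 was at 0.477, 0.364 and 0.328 CPM in DMSO and 0.917, 0.648 and 0.609 CPM in FGFRi.

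Col15a1 and Col18a1 encode the collagens XV and XVIII, which carry heparan or chondroitin sulfate chains. Col15a1 (ENSMUSG00000028339) held 75.5 and 99.4 CPM in WT, 113 and 117 CPM in HET and 156 and 172 CPM in HOM, with HOM above all controls, and rose by 0.71 ± 0.093 (adjusted p = 0.000546). In FGFRi it was at 87.3, 85.2 and 77.4 CPM against 77.8, 70.8 and 72.2 in DMSO, a difference of 0.18 ± 0.095 that did not pass (adjusted p = 0.213). Col18a1 (ENSMUSG00000001435) was at 30.9 and 25.5 CPM in WT, 60.1 and 58.2 CPM in HET and 61.4 and 76.4 CPM in HOM. WT stood apart from the other 4 libraries: Col18a1 rose by 1.06 ± 0.15 in HET against WT (adjusted p = 0.0036; 0.0795 without WT 2) and by 0.76 ± 0.12 in HOM against WT and HET (adjusted p = 0.00242; 0.118 without HOM 2). FGFRi and DMSO overlapped in Col18a1 (0.21 ± 0.13, adjusted p = 0.296).

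The nidogens bridge laminin and collagen IV, and Nid1 had the smallest adjusted p of any member with the inhibitor. The 250 bases before its annotated start are printed for that reason (chr13:13437352-13437601 on the + strand, RefSeq on GRCm38.p6, 5' to 3'), with capitals on 1 GC box and on 1 CCAAT box, here on the opposite strand as ATTGG.
Nid1 upstream: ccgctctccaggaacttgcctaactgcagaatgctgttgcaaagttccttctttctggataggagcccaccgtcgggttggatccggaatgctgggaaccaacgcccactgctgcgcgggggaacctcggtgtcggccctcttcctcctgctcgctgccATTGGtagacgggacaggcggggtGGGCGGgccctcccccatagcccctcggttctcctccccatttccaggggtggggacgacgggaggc

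Nid1 (ENSMUSG00000005397) was read at 71.9, 65.6 and 64.8 CPM in DMSO and 136, 111 and 106 CPM in FGFRi, and Nid2 (ENSMUSG00000021806) at 76.4, 68.8 and 66.2 and 163, 116 and 117 CPM. Every FGFRi library was above every DMSO library, and FGFRi 1 was the highest for both. Nid1 rose by 0.80 ± 0.095 (adjusted p = 5.66e-05) and Nid2 by 0.90 ± 0.12 (adjusted p = 0.000198). The untreated libraries held 69.9 and 75.0 CPM of Nid1 in WT, 133 and 114 CPM in HET and 148 and 150.4 CPM in HOM, and 87.7 and 102, 171 and 148 and 166 and 196 CPM of Nid2. For both genes WT was lowest. Nid1 was higher in HOM than in all controls, whereas HOM and HET overlapped for Nid2. In HOM against WT and HET, Nid1 rose by 0.66 ± 0.093 (adjusted p = 0.000861) and Nid2 by 0.56 ± 0.12 (adjusted p = 0.0138; 0.0523 without WT 1 and 0.281 without HOM 2). The nidogens together, as a ratio to Col4a1 and Col4a2 per kb, were 0.167, 0.208 and 0.215 in DMSO and 0.657, 0.418 and 0.456 in FGFRi, and 0.32 ± 0.0834 in WT and HET (SD, n = 4) and 0.393 ± 0.00105 in HOM (SD, n = 2; exact permutation p = 0.1 and 0.267).

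Of the heparan sulfate proteoglycans, Agrn (agrin) was at 489, 446 and 391.7 CPM in DMSO and 324, 377 and 340.0 CPM in FGFRi, without overlap, and fell by 0.35 ± 0.10 (adjusted p = 0.0234). It was not called without DMSO 1 or 2, nor without FGFRi 1 or 3 (adjusted p from 0.0604 to 0.129), nor in HOM (0.015 ± 0.11). Hspg2, which encodes perlecan, had differences of 0.13 ± 0.14 with the inhibitor and 0.21 ± 0.14 in HOM, and neither passed.

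Fras1, Frem1 and Frem2 form a complex that anchors embryonic basement membranes to mesenchyme, and nephronectin (Npnt) is the ligand of the integrin whose alpha chain Itga8 encodes. Npnt (ENSMUSG00000040998) had 11.3, 9.99 and 12.5 CPM in DMSO and 34.0, 20.6 and 30.0 CPM in FGFRi, and rose by 1.34 ± 0.17 (adjusted p = 8.54e-05). WT, HET and HOM libraries were at 10.8, 8.11, 11.96, 12.4, 11.04 and 11.3 CPM and overlapped (0.052 ± 0.17, adjusted p = 0.92). The other 3 did not pass in either arm: Frem2 was at 32.3, 37.6 and 41.7 CPM in DMSO and 27.0, 32.1 and 26.8 in FGFRi (-0.38 ± 0.16, adjusted p = 0.105), Fras1 at 26.7, 27.4, 30.7 and 43.1 CPM in WT and HET and 21.8 and 24.3 in HOM (-0.45 ± 0.16, adjusted p = 0.121), and Frem1 differed by 0.031 ± 0.26 and -0.0059 ± 0.24.

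The receptors outside the integrin family were dystroglycan, Bcam, which binds the laminin chain of Lama5, and the collagen receptor Ddr1. Dag1 was at 498, 436 and 404 CPM in DMSO and 326, 387 and 377 CPM in FGFRi and fell by 0.30 ± 0.095 (adjusted p = 0.0387), a call kept only without DMSO 3, with adjusted p from 0.0546 to 0.236 without any other library. Bcam was at 104 and 91.0 CPM in WT, 78.8 and 72.6 CPM in HET and 61.0 and 70.1 CPM in HOM, below all controls in both HOM libraries, and fell by 0.39 ± 0.11 (adjusted p = 0.0443). That call was lost without any 1 of the 6 libraries (adjusted p from 0.0622 without HET 2 to 0.276 without HOM 1). Bcam did not pass with the inhibitor (0.16 ± 0.10), and Ddr1 differed by -0.041 ± 0.091 and 0.0068 ± 0.092.

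Integrin alpha chains set which ligand an integrin binds. Itga3 (ENSMUSG00000001507), whose product pairs with Itgb1 to bind laminins of the Lama5 type, was read at 77.7, 68.4 and 66.7 CPM in DMSO and 36.1, 58.4 and 45.6 CPM in FGFRi. The groups did not overlap, and Itga3 fell by 0.58 ± 0.13 (adjusted p = 0.00533). In HOM it was at 58.8 and 70.9 CPM, below the 72.0, 72.3, 83.7 and 78.4 CPM of WT and HET, but the difference of -0.23 ± 0.13 did not pass (adjusted p = 0.356). Its share of the 8 alpha chains per kb was 36.2, 35.1 and 34.4% in DMSO, 20.4, 31.8 and 26.8% in FGFRi, 33.1, 32.2, 34.9 and 33.1% in WT and HET and 23.6 and 27.3% in HOM (exact permutation p = 0.1 and 0.0667, the smallest each arm allows).

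Itga9 (ENSMUSG00000039115), whose integrin binds tenascin and fibronectin and is found in muscle, mesenchyme and vessels, changed in opposite directions. It held 51.9, 42.9 and 42.9 CPM in DMSO and 30.5, 34.5 and 29.4 CPM in FGFRi, and fell by 0.54 ± 0.094 (adjusted p = 0.00104). In WT it held 63.5 and 64.0 CPM, in HET 56.2 and 60.0 and in HOM 90.9 and 97.6, a rise of 0.63 ± 0.087 (adjusted p = 0.000748). Neither comparison overlapped, both calls were kept in all fits without 1 library, and HET lay below WT. The share of Itga9 among the 8 alpha chains per kb was 16.9 ± 0.901% in DMSO, 13.2 ± 0.65% in FGFRi (SD, n = 3), 19.8 ± 1.99% in WT and HET (SD, n = 4) and 27.5 ± 0.605% in HOM (SD, n = 2).

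Itga4 (ENSMUSG00000027009), an alpha chain that binds fibronectin and is known from neural crest, muscle precursors and blood cells, was low but rose in both arms. Levels were 2.55, 1.93 and 3.61 CPM in DMSO and 9.36, 5.94 and 7.19 CPM in FGFRi (rise 1.54 ± 0.28, adjusted p = 0.00123), and 2.27 and 1.62 CPM in WT, 3.33 and 5.31 CPM in HET and 9.2 and 8.27 CPM in HOM (rise 1.57 ± 0.25, adjusted p = 0.00182). Groups did not overlap in either comparison, and Itga4 had 15 to 200 counts per library. Besides the muscle markers above, Schwann and glial markers summed to 389 to 469 CPM in DMSO, 298 to 341 in FGFRi and 423 to 485 in the untreated libraries, and macrophage markers to 40.5 to 103, 48.6 to 74.7 and 39.1 to 66.1 CPM. The part of these cells in Itga4 was not tested. The other 5 alpha chains passed in neither arm: with the inhibitor and in HOM, Itga1 differed by 0.43 and 0.57, Itga2 by -0.13 and 0.17, Itga5 by 0.18 and 0.28, Itga8 by -0.02 and 0.14, and Itgav by 0.15 and 0.017.

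Of the beta chains, Itgb3 (ENSMUSG00000020689), the partner of Itgav in a receptor for vitronectin and fibronectin, was at 10.03, 10.25 and 8.54 CPM in DMSO and 20.7, 18.9 and 15.1 CPM in FGFRi, without overlap, and rose by 0.87 ± 0.14 (adjusted p = 0.000579). WT held 10.9 and 9.73 CPM, HET 21.6 and 22.1 and HOM 21.6 and 26.2, so that HET and HOM overlapped and WT was lower. Itgb3 rose by 0.68 ± 0.13 in HOM against both controls (adjusted p = 0.00543; 0.18 without HOM 2). Itgb1 stayed within a narrow range, at 318, 301 and 311 CPM in DMSO, 289, 282 and 284 in FGFRi and 314, 329, 331, 311, 325 and 311 in WT, HET and HOM, and did not pass (-0.12 ± 0.067 and -0.016 ± 0.07). Itgb6, an epithelial chain with 10 to 79 counts per library, was at 1.59, 1.98 and 2.3 CPM in DMSO and 4.59, 2.05 and 4.37 CPM in FGFRi and did not pass (0.90 ± 0.34, adjusted p = 0.0745). Itgb5 and Itgb8 differed by 0.10 ± 0.077 and 0.11 ± 0.19 with the inhibitor and by 0.23 ± 0.076 and -0.45 ± 0.20 in HOM, and did not pass either.

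**Figure D4:**
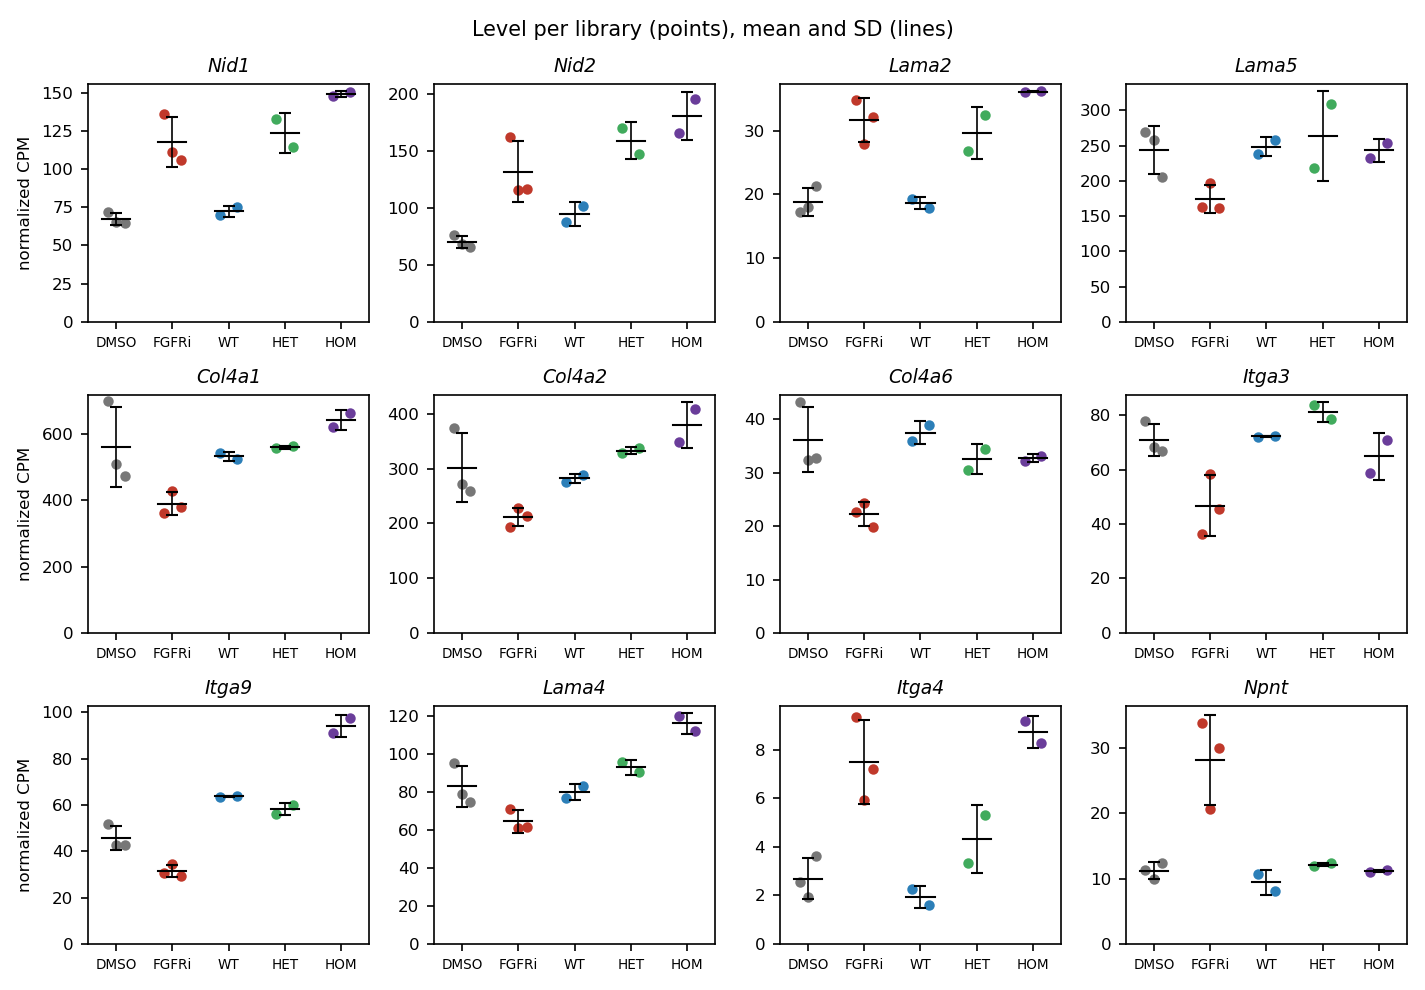
Normalized CPM of 12 members in each library (points), with the mean and SD of each group (lines); each panel has its own vertical axis from 0. Nid1, Nid2 and Lama2 are high in FGFRi, HET and HOM and low in DMSO and WT, Itga9 is lowest in FGFRi and highest in HOM, and Npnt is high in FGFRi alone.

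The 2 effects were compared by a test of their difference, which uses separate libraries for each arm. It called 6 of 39 members, where 2.77% of all genes were called (1.36% with a higher and 1.41% with a lower inhibitor effect), and the median difference was -0.13 over members and -0.0070 over all genes. Npnt had the higher inhibitor effect, by 1.29 ± 0.24 (adjusted p = 0.0106; 0.0801 without HOM 2). Lower inhibitor effects were found for Itga9, by -1.17 ± 0.13 (adjusted p = 0.000178), Col4a2, by -0.82 ± 0.17 (0.0198), Lama4, by -0.80 ± 0.13 (0.00494), Col4a1, by -0.76 ± 0.18 (0.0344), and Col15a1, by -0.54 ± 0.13 (0.046). Itga9 and Lama4 were called in all 12 fits that left out 1 library. Col4a2 was lost without FGFRi 1, WT 1 or HOM 2 (adjusted p = 0.0598, 0.052 and 0.171). Col4a1 was kept only without one of the DMSO libraries or FGFRi 2, and Col15a1 only without WT 2 (highest adjusted p = 0.19 and 0.274, both without HOM 2). For the nidogens, Lama2, Itga4 and Itgb3, which rose in both arms, the difference did not pass (adjusted p from 0.366 for Nid2 to 0.988 for Itga4).

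**Figure D5:**
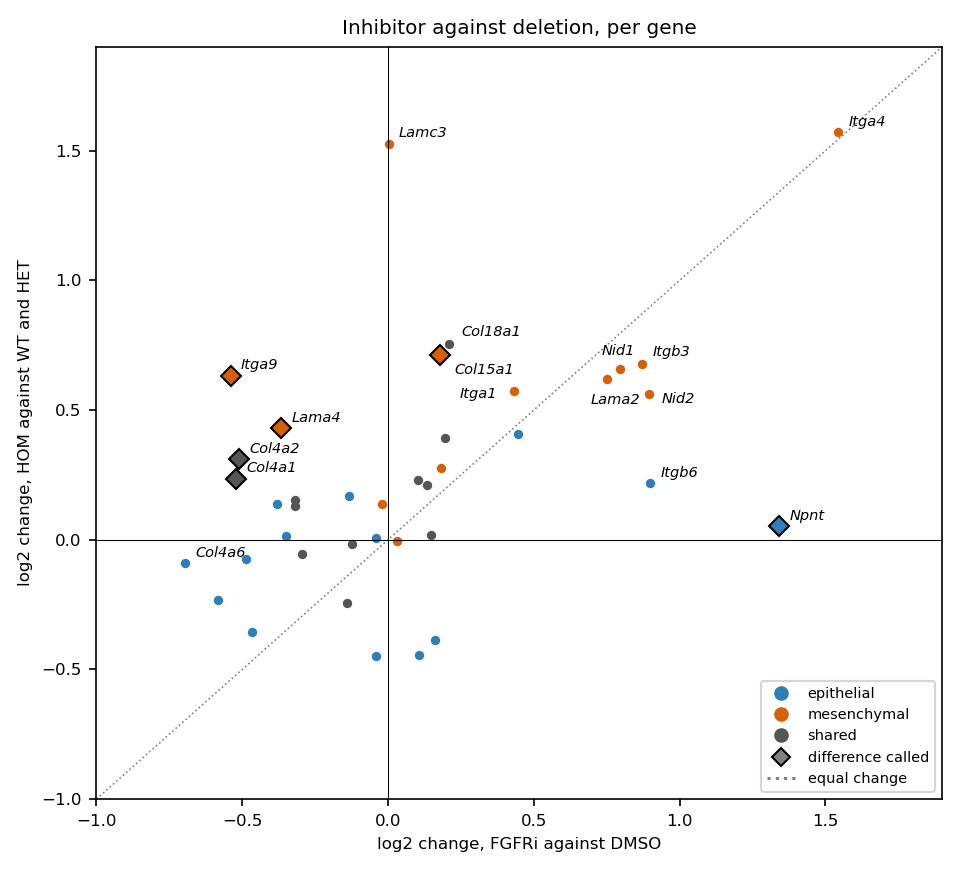
Log2 change in HOM against WT and HET (vertical) over log2 change with FGFRi against DMSO (horizontal) for the 39 tested members; colour gives the compartment, diamonds mark the 6 members whose 2 effects differed by the test, and the dotted line marks equal change. Itga9, Lama4, Col4a1 and Col4a2 lie left of 0 and above 0, Npnt lies far right near 0, and Nid1, Nid2, Lama2, Itgb3 and Itga4 lie near the dotted line.

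HET and WT glands, the 2 control groups, differed in 5 of 39 members, all higher in HET, where 0.851% of all genes were higher and 0.372% lower (1.22% called in all). These were Itgb3 (1.07 ± 0.16, adjusted p = 0.00384), Col18a1, Nid1 (0.77 ± 0.11, 0.00362), Nid2 (0.75 ± 0.15, 0.0214) and Lama2 (0.66 ± 0.13, 0.0243). Each call was lost without at least 1 library: Itgb3 without WT 1 or WT 2 (adjusted p = 0.0519 and 0.0769), Nid1 without WT 1 (0.113), Lama2 without WT 1, WT 2 or HET 2 (0.168, 0.268 and 0.256), and Nid2 without any 1 of the 4 (0.0596 to 0.262). Against HET alone, HOM was higher in 2 members, Itga9 (0.70 ± 0.10, adjusted p = 0.00314) and Col15a1 (0.51 ± 0.11, 0.0288), where 0.618% of all genes were higher and 0.876% lower (1.49% called in all). Against WT alone 11 members were higher and 2 lower, where 4.5% of all genes were higher and 3.06% lower (7.56% called in all). These comparisons share libraries. The mesenchymal marker sum was higher in both HET libraries than in both WT libraries, and its part in the 5 members was not tested.

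Because epithelial and mesenchymal markers moved in opposite directions, the members were also read relative to each marker list. Scaled to the 16 pan-epithelial genes, the median of all genes shifted to 0.46 with the inhibitor and 0.45 in HOM, and 23 members rose and 0 fell with the inhibitor (all genes: 55.3% rose and 0.965% fell) and 30 rose and 0 fell in HOM (56.9% rose and 0.555% fell). On this scale the collagen IV chains were at a median of -0.035 and Lama5 at -0.0067 with the inhibitor (adjusted p = 0.969), Itga3 at -0.12 (0.401) and Col4a6 at -0.22 (0.173). Scaled to the 16 mesenchymal genes, the medians of all genes were -0.92 and -0.40, and 1 member rose and 29 fell with the inhibitor (1.66% and 71.7% of all genes) and 1 rose and 10 fell in HOM (1.21% and 33.2%). The nidogens were then at -0.14 (adjusted p = 0.368) and -0.044 (0.79) with the inhibitor, Lama2 at -0.16 (0.369) and Itgb3 at -0.034 (0.861). Npnt was the 1 member that rose with the inhibitor on this scale (0.42, 0.0465), and Itga4 the 1 that rose in HOM (1.17, 0.00545). The test of the difference gave Npnt as higher and Itga9, Lama4 and Col4a2 as lower on both scales.

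The wider machinery of the sheet was read from 5 gene lists, against 9.73% of all genes that rose and 10.7% that fell with the inhibitor, and 3.44% and 2.44% in HOM. Of 18 genes that fold and crosslink collagen, 7 rose and 1 fell with the inhibitor (median 0.25). Lox, which crosslinks collagen and elastin, rose by 2.23 ± 0.16 (adjusted p = 1.74e-06; 14.1 ± 1.59 CPM in DMSO and 68.6 ± 13.7 in FGFRi, SD, n = 3), its relative Loxl1 by 1.35 ± 0.15 (3.38e-05) and P3h1, a collagen prolyl hydroxylase, by 0.70 ± 0.11 (0.000359). Plod1, a collagen lysyl hydroxylase, fell by 0.42 ± 0.096 (0.00667). In HOM 5 of the 18 rose and 0 fell (median 0.29), led by Plod1 (0.69 ± 0.093, adjusted p = 0.000684), P3h1 (0.50 ± 0.10, 0.00981) and Lox (0.72 ± 0.16, 0.0149). The 2 effects differed for Plod1, by -1.10 ± 0.13 (adjusted p = 0.000403), for Lox, by 1.52 ± 0.23 (0.00293), and for Loxl1, by 0.86 ± 0.21 (0.0414).

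Of 17 tested proteins that also sit in or on basement membranes, 6 rose and 3 fell with the inhibitor (median 0.41), where 9.73% of all genes rose and 10.7% fell. Sparc, a collagen chaperone of the matrix, rose by 0.83 ± 0.10 (adjusted p = 8.74e-05), Smoc1 by 1.11 ± 0.17 (0.000382) and Egfl6, a ligand of the Itga8 integrin, by 1.25 ± 0.19 (0.000393). Vwa1, which binds perlecan, fell by 0.63 ± 0.11 (0.00136), Ntn1 (netrin) by 0.55 ± 0.14 (0.0139) and Papln by 0.53 ± 0.15 (0.0224). In HOM 3 rose and 0 fell (median 0.17), against 3.44% and 2.44% of all genes: Egflam, a ligand of dystroglycan, by 0.86 ± 0.17 (adjusted p = 0.00972), Fn1 (fibronectin) by 0.61 ± 0.13 (0.0133) and Sparc by 0.48 ± 0.11 (0.0151). Of 22 tested linkers between integrins and actin, 6 rose and 3 fell with the inhibitor (median -0.028), with Tns1 at 0.72 ± 0.11, Tns2 at 0.54 ± 0.12, Rsu1 at 0.42 ± 0.11, Actn1 at -0.38 ± 0.069, Actn4 at -0.36 ± 0.073 and Vcl at -0.23 ± 0.077. In HOM Tns1 rose (0.60 ± 0.11, adjusted p = 0.0036) and Cib1 fell (-0.44 ± 0.12, 0.045).

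Of 12 enzymes that glycosylate dystroglycan, 1 rose and 1 fell with the inhibitor, where 20.5% of all genes were called in either direction. The gene that fell was Pomgnt1 (-0.43 ± 0.11, adjusted p = 0.0122). Of 11 other integrin subunits, Itgal rose (1.54 ± 0.40, 0.0131) and Itga6, the laminin-binding alpha chain of hemidesmosomes, fell (-0.48 ± 0.099, 0.00344). In HOM 0 of these 23 genes passed by edgeR, where 5.88% of all genes were called. DESeq2 called 1 of them, and 5 had an unadjusted p under 0.05 by edgeR.

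Promoter sequence was searched in the 250 bases before each annotated start, on both strands, for the 32 members found in the RefSeq table of GRCm38.p6. A gene counted when any of its windows held the match. Col4a5 and Col4a6 counted for the GC box in this way, though the shorter stretches printed above hold 0. A GC box (GGGCGG) was present in 17 of 32 members, 53.1%, and in 35.4% of 27025 genes. A CCAAT box (CCAAT) was present in 10 of 32, 31.2%, against 37.5%, and a TATA box (TATAAA) in 0 of 32 against 14.3%. The core of ETS factor sites (CCGGAAG), the family that includes FGF-induced Etv genes, was found before Frem1 and Itga3, 6.25% of members against 7.83% of genes. A match describes letters in these windows, and binding was not measured.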

How the data were processed

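Deposited values are whole-number read counts per Ensembl gene, not normalized; per the submitters' processing notes, bcl2fastq and STAR were used with the genome build GRCm39. The counting program, strand use and annotation were not given in the sources used here. Overlapping genes may share reads. Ribosomal RNA was depleted before library preparation, per the labels' protocols. Symbols (52403 of 52636 identifiers) and exon lengths came from GENCODE M21. The members and lists were chosen with earlier results of these data known.

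Counts were tested in R 4.3.3 with edgeR 4.0.16 (quasi-likelihood F test, TMM, filterByExpr with minimum count 10 and total 15, 15859 genes, 12 libraries, 1 coefficient per group). P-values were two-sided, adjusted by Benjamini-Hochberg over all genes, and called under 0.05. The SE is the log2 change divided by the square root of F. The model was tested on simulated data. Total counts were 6043701 to 22322182 per library, and intervals from reads without molecular identifiers would cover counting error only. Named genes are all 40 members and, per pathway list, up to 3 called genes per direction in order of p. The result of 1 listed gene is not reported here. Alternatives were other scalings, filters, DESeq2 1.42.0, control groups, a replicate block, a sex covariate and each library left out. Exact permutation tests served for chain shares. Promoter sequences are from RefSeq, GRCm38.p6.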

Additional observations from a re-analysis of the deposited data

Results flagged for a closer look

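For 6 members the inhibitor effect and the deletion effect differed by the test of the difference itself, in log2 units. Itga9 differed by -1.17: it was lower with the inhibitor (-0.54 ± 0.094) and higher in HOM (0.63 ± 0.087). Lama4 differed by -0.80, with effects of -0.37 ± 0.093 and 0.43 ± 0.092. Col4a2 differed by -0.82 and Col4a1 by -0.76, each lower with the inhibitor and not called in HOM. Col15a1 differed by -0.54, called in HOM alone, and Npnt by 1.29, called with the inhibitor alone. The HOM libraries are female and their controls male, so a sex effect in that arm cannot be told apart from the deletion. No group held 4 or more libraries, so single libraries were not screened for standing apart.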

How the results depend on the processing

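Under DESeq2 size factors, a minimum of 1 CPM in 2 libraries, DESeq2, and, for HOM, WT alone as controls, the counts of members and of all genes called stayed within 1.5 times those reported. A member value counted as reversed when it changed sign and was called in the fit reported above, the alternative fit or both. A reversed value is therefore not always a call in both fits. Such values came from the 2 scalings to marker lists alone. Over all settings, 171 of 2612 member values changed sign while called in neither fit and were not counted as reversed. Scaled to library totals, 1303 genes (1018 higher and 285 lower, against 1543 and 1702) and 7 members (6 and 1) were called with the inhibitor, and 169 genes and 1 member in the test of the difference. On that scaling 84.8% of calls were higher in HOM against WT and HET and 84.0% in HET against WT, against 58.5% and 69.6%. Scaled to the pan-epithelial genes, the calls numbered 8918 genes with the inhibitor, 9113 genes and 30 members in HOM, 340 genes in HET against WT and 212 in the difference. Log2 changes reversed on that scale with the inhibitor to Lama4 0.12, Lamb2 0.34, Lamc1 0.16, Col4a5 0.025, Agrn 0.13, Dag1 0.18, Fras1 0.46, Itga8 0.45, Itgb1 0.35 and Ddr1 0.44, and in HOM to Lama5 0.37, Col4a6 0.36, Dag1 0.40, Bcam 0.064 and Itgb1 0.44. Scaled to the mesenchymal genes, the calls numbered 11629 genes and 30 members with the inhibitor, 5463 genes in HOM, 8352 genes and 17 members in HET against WT, and 3974 genes and 21 members in the difference. With the inhibitor, reversed log2 changes on this scale were Lama2 -0.16, Lamb1 -0.73, Col15a1 -0.75, Col18a1 -0.71, Nid1 -0.14, Nid2 -0.044, Hspg2 -0.80, Bcam -0.75, Frem1 -0.87, Itga5 -0.73, Itgav -0.77, Itgb3 -0.034, Itgb5 -0.81 and Itgb8 -0.81, in HOM Lamb1 -0.009 and Itgav -0.38, and in HET against WT Lamb2 -0.51, Lamc1 -0.55 and Itgav -0.48. Each scaling divides by a list that itself moved, as the marker sums show. Without a filter on low counts 1449 genes were called in HOM, 655 genes and 9 members in HET against WT, and 1003 genes and 12 members in the difference, and the cause was not tested. Fitted on the compared groups alone, HOM gave 1406 genes, and with HET alone as controls 237 genes and 2 members. Sex as a covariate gave 2153 genes with the inhibitor, and 46 genes and 0 members in HOM (edgeR, with 8 members at an unadjusted p under 0.05). Its term rests on DMSO 2 against the other DMSO libraries. With the inhibitor the fit therefore nearly repeats the one without DMSO 2, and in HOM it cannot separate sex from deletion. Leaving out each library in turn gave 11 to 17 members and 1896 to 3099 genes with the inhibitor, 4 to 11 members and 140 to 658 genes in HOM, 1 to 4 members and 25 to 195 genes in HET against WT, and 2 to 7 members and 77 to 560 genes in the difference. The member count moved by over 1.5 times without FGFRi 1 with the inhibitor (11), without HOM 2 in HOM (4), without WT 1, WT 2 or HET 2 in HET against WT (1, 1 and 3), and without FGFRi 1, WT 1 or HOM 2 in the difference (3, 3 and 2). The gene count did so without DMSO 2 or FGFRi 1 (2161 and 1896), without WT 1, WT 2, HOM 1 or HOM 2 (574, 516, 501 and 140), without WT 1, WT 2 or HET 2 (25, 31 and 49), and, in the difference, without any library other than DMSO 2, DMSO 3, FGFRi 3 and HET 1. Fewer libraries in these fits leave fewer residual degrees of freedom, and where a group kept 1 library, it was assumed to vary like the others.

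Replicate numbers did not pair the libraries: deviations of same-numbered libraries correlated at -0.15 to -0.025. With the replicate block, 16 members and 2517 genes were called with the inhibitor, 11 and 644 in HOM, 4 and 127 in HET against WT, and 3 and 208 in the difference. Depth limits the low members: Lamc3 had 5 to 72 counts per library, Itgb6 10 to 79 and Col4a3 1 to 11. An interval computed from such counts alone would cover counting error only, and none is given here. The ± values above are SEs of the edgeR fit or SDs between libraries.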

Other observations

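Some proportions of chains, as CPM per kb, were not described above. Itgav took 26.8 ± 1.66% of the 8 integrin alpha chains in DMSO and 33.7 ± 3.03% in FGFRi (SD, n = 3), without overlap, and 24.7 ± 0.531% in WT and HET (SD, n = 4) and 22.6 ± 1.04% in HOM (SD, n = 2). Itga5, the fibronectin receptor chain, took 10.8 ± 0.261% in DMSO and 14.1 ± 2.45% in FGFRi. Itgb1 was 76.8 ± 1.09% of the 5 beta chains in DMSO and 72.6 ± 0.95% in FGFRi. The ratio of Col4a5 to Col4a6 was 2.37 ± 0.421 in DMSO, 2.79 ± 0.142 in FGFRi, 2.35 ± 0.079 in WT and HET and 1.96 ± 0.00439 in HOM, and that of Nid2 to Nid1 was 1.4 ± 0.0287 in DMSO and 1.5 ± 0.104 in FGFRi. With the inhibitor, exact two-sided permutation p-values were 0.1, the smallest that 3 libraries against 3 allow, for the first 3 (0.136 adjusted over 15 quantities), and 0.3 for the 2 ratios (0.346 adjusted). In HOM the p of the Col4a5 to Col4a6 ratio was 0.0667 (0.143 adjusted).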
